A study of Rattus norvegicus with 8 samples.

Results

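The miR-23/27/24 miRNAs come from paralogous clusters, called a and b here, and 10 of their mature forms were chosen by name from the 752 rows of the count table. All 10 passed the filter on low counts, which left 507 miRNAs for testing. The a cluster gives miR-23a-3p, both arms of miR-27a and miR-24-2-5p. The b cluster gives both arms of miR-23b, both arms of miR-27b and miR-24-1-5p, and miR-24-3p comes from both clusters. Small RNA counts were available for the striatum, a forebrain region of reward and movement, from 4 saline and 4 methamphetamine (METH) self-administered rats, with 1 library per rat. All were wild-type, and according to the study's methods they were male Sprague-Dawley rats whose age is not given. Rats of both groups were trained to press a lever for food, received a jugular catheter, took saline or METH by lever press in daily sessions, and were killed under ketamine and xylazine. Rats of both groups were chosen at the end for stable lever pressing, so they are not a random draw of exposed rats.

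A miRNA is cut as a short duplex from the stem of a hairpin, and usually one strand, the guide, is kept in an Argonaute protein while the other, the passenger, is degraded. The guide pairs with messenger RNAs through its seed, bases 2 to 8 from its 5′ end, and lowers their translation or stability. The a and b clusters are known from work on blood vessels, heart muscle and immune cells. Among published targets, miR-23 acts on lamin B1, a nuclear envelope protein whose excess disturbs myelin, miR-27 on the adipocyte regulator PPARγ, and miR-24 on cell cycle and apoptosis genes.

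On the rat assembly GRCr8 the hairpins of each cluster lie together on 1 strand, in the order miR-23, miR-27 and miR-24 along the transcript. The b hairpins lie within the span of Aopep, an aminopeptidase gene, whereas no annotated gene spans the a hairpins. The count table was made on rn6, so coordinates are not given. Mature sequences for all 10 members were taken from RefSeq (GRCr8). The abundant 3p strands are shown first because they carry the seeds of the 3 families. They read 5′ to 3′, with the seed in capitals and the rat prefix rno:
rno-miR-23a-3p: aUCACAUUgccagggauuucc
rno-miR-23b-3p: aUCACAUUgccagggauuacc
rno-miR-27a-3p: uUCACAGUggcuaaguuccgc
rno-miR-27b-3p: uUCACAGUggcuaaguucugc
rno-miR-24-3p: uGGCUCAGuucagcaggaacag

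The miR-23 paralogues have the same seed and differ by 1 base of 21, U19A, written as the a base, its position from the 5′ end and the b base. The miR-27 paralogues also share their seed and differ by C19U alone. The b forms can therefore be told from the a forms at a single position of each read, near its 3′ end. The seeds of miR-23 and miR-27 differ from each other, and in the table no row outside the members with a RefSeq mature sequence had the seed of a member.

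The 5p strands, which are the rare strands of these hairpins, diverge more. They are shown because they can be assigned to 1 locus, also for miR-24:
rno-miR-27a-5p: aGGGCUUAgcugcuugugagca
rno-miR-27b-5p: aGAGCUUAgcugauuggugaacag
rno-miR-23b-5p: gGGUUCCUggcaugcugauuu
rno-miR-24-2-5p: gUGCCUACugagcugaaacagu
rno-miR-24-1-5p: gUGCCUACugagcugauaucag

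Positions were compared from the 5′ end without gaps. The 5p strands of miR-27a and miR-27b differed at 8 of 22 compared positions, including G3A inside the seed. Those of miR-24-2 and miR-24-1 shared a seed and differed at 5 of 22 positions, from A17U to U22G. An inserted base shifts every position after it, so these counts can overstate the divergence. The hairpins of miR-24 show why its 3p strand has no locus of its own, since each holds the same miR-24-3p sequence, here in capitals:
Mir24-1: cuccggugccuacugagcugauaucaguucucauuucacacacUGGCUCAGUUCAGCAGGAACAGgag
Mir24-2: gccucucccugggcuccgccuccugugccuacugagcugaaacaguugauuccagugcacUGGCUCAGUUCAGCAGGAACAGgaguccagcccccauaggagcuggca

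Library totals ranged from 12929302 to 27632443 counts, the smallest in METH rat 1. METH rat 4 stood apart from the other libraries on the first principal component of all tested miRNAs (-21.5, against -2.83 to 7.29). Its TMM factor was 0.766, against 0.959 to 1.15 in the other libraries, and a low factor raises each CPM of that library. Neuronal miRNAs (miR-124-3p, miR-9a-5p, miR-128-3p and miR-137-3p) were tested in all libraries, with a summed level of 249554 to 451242 CPM. CPM here means counts divided by the library total times its trimmed mean of M-values (TMM) factor, set to a fixed depth. In whole tissue, fewer cells of a type and less RNA per cell cannot be told apart.

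The miR-23 guides, which share one seed, showed small differences between groups. The level of miR-23a-3p was 1221, 1050, 864 and 820.2 CPM in saline rats 1 to 4 and 905, 1091, 1271 and 1514 CPM in METH rats 1 to 4. The groups overlapped, with METH rat 4 highest and saline rat 4 lowest. METH over saline gave a log2 fold change of 0.27 ± 0.23 (SE) and a 95% interval from -0.24 to 0.79. The level of miR-23b-3p was 2755, 2460.3, 2234 and 2288 CPM in the saline rats and 2248, 2753, 3222 and 3749 CPM in the METH rats. Again METH rat 4 was highest and the groups overlapped, with a log2 fold change of 0.30 ± 0.21 (SE) and an interval from -0.17 to 0.77. Without METH rat 4 these log2 fold changes were 0.14 for miR-23a-3p and 0.17 for miR-23b-3p.

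The miR-27 guides differed in how evenly they were expressed. The level of miR-27a-3p was 874, 879, 895 and 835 CPM in the saline rats and 801, 999.9, 1106 and 941 CPM in the METH rats. The 4 saline rats lay close together and inside the METH range. Its log2 fold change was 0.14 ± 0.18 (SE), with an interval from -0.27 to 0.56, and 0.042 without METH rat 3. The level of miR-27b-3p was 3068, 2196, 2196 and 2371 CPM in the saline rats and 2296, 2876, 3526 and 5227 CPM in the METH rats. METH rat 4 was far above the others, and METH rats 1 and 2 lay within the saline range. For METH over saline, miR-27b-3p had a log2 fold change of 0.50 ± 0.27 (SE), with an interval from -0.11 to 1.11, and it was 0.24 without METH rat 4.

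The member with the most counts was miR-24-3p, which ranked number 11 among the tested miRNAs by mean CPM. Its level was 31253, 40821, 14799 and 19006 CPM in the saline rats and 19919.5, 8830.4, 25215 and 9591 CPM in the METH rats. Saline rat 2 was highest and METH rat 2 lowest, and both groups spread widely and overlapped. Its difference between groups on the log2 scale was -0.74 ± 0.43 (SE), with an interval from -1.69 to 0.21, which pointed opposite to those of the miR-23 and miR-27 guides. Leaving out METH rat 3 gave -1.05, and leaving out saline rat 2 gave -0.43. Because both hairpins hold the sequence, and how multi-mapping reads were counted is not stated, its level is not comparable with those of single-locus members.

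**Figure D1:**
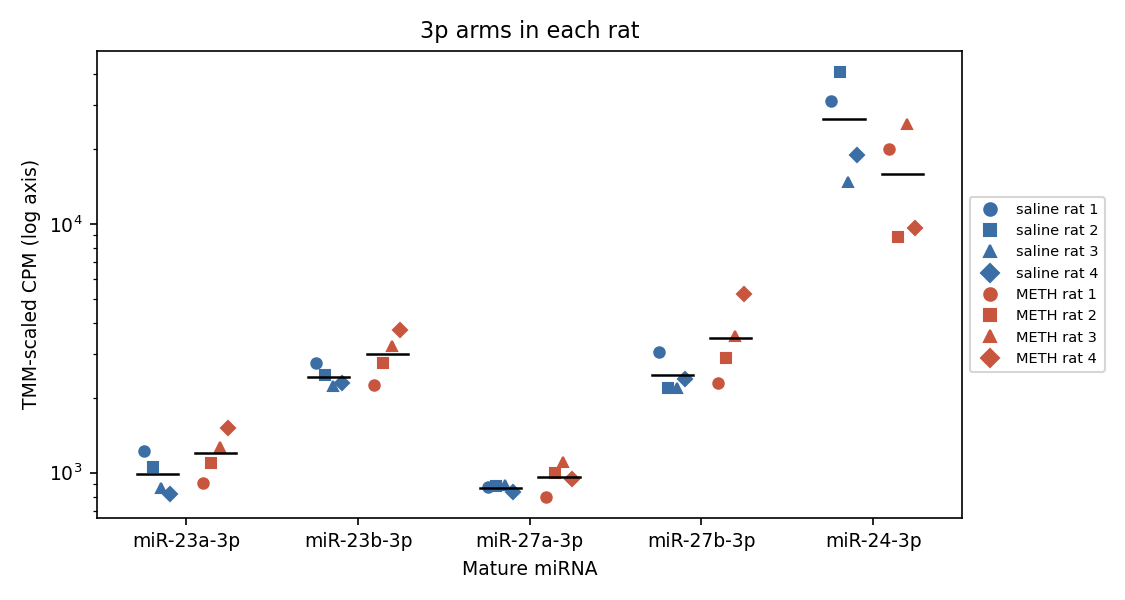
TMM-scaled CPM on a log axis of the 3p strands in each of the 8 rats, with saline in blue, METH in red, 1 marker shape per rat number and a bar at the group mean. The groups overlap for each strand, METH rat 4 is highest for miR-23a-3p, miR-23b-3p and miR-27b-3p, and miR-24-3p runs from 8830.45 to 40821 CPM.

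Of the 5p strands, those of miR-24 pointed lower and those of the b hairpins miR-23b and miR-27b pointed higher in METH, none past the test. The level of miR-24-2-5p, from the a cluster, was 13.6, 28.5, 33.8 and 39.4 CPM in the saline rats and 29.5, 17.3, 19.4 and 13.0 CPM in the METH rats. Saline rat 4 was highest and saline rat 1 lay near the METH minimum, so the groups overlapped, and the log2 fold change was -0.54 ± 0.37 (SE). For its b partner miR-24-1-5p the levels were 8.25, 13.4, 15.2 and 21.0 CPM in the saline rats and 13.1, 11.7, 13.1 and 10.2 CPM in the METH rats. Here too saline rat 4 was highest, while saline rat 1 was below each METH rat. The log2 fold change of miR-24-1-5p was -0.27 ± 0.30 (SE), and -0.053 without saline rat 4. A further miRNA, miR-3074, is annotated on the opposite strand of the Mir24-1 hairpin, over miR-24-1-5p, and had 2 to 17 counts per library. Whether counting used the strand is not stated.

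The level of miR-23b-5p was 8.88, 6.14, 6.27 and 6.80 CPM in the saline rats and 5.70, 5.74, 10.9 and 19.9 CPM in the METH rats. METH rats 1 and 2 lay below every saline rat and METH rats 3 and 4 above. Its log2 fold change, 0.59 ± 0.42 (SE), was the highest of the members and fell to 0.080 without METH rat 4. The level of miR-27b-5p was 21.9, 8.07, 14.6 and 16.9 CPM in the saline rats and 9.13, 17.2, 19.4 and 27.3 CPM in the METH rats. METH rat 4 was highest and saline rat 2 lowest, and the log2 fold change of 0.25 ± 0.39 (SE) turned to -0.019 without METH rat 4. The rarest member, miR-27a-5p, had 10 to 68 counts per library, at 1.17 to 2.92 CPM in the saline rats and 0.687 to 2.82 CPM in the METH rats, with a log2 fold change of -0.29 ± 0.43 (SE). This difference was smaller than its SE, and it was -0.65 without METH rat 4 and -0.027 without saline rat 2.

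**Figure D2:**
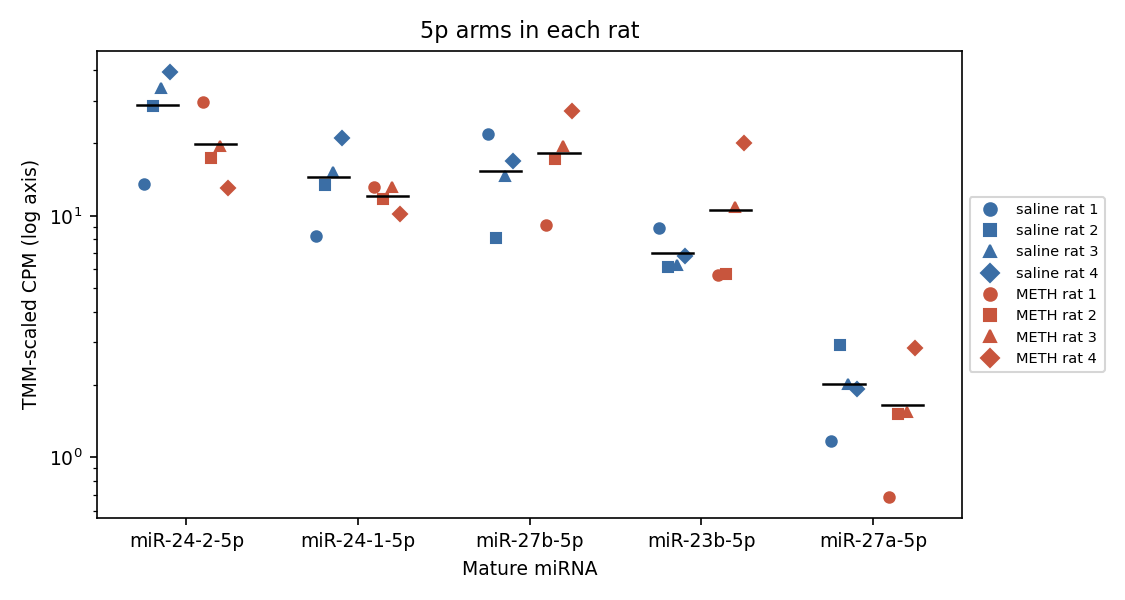
TMM-scaled CPM on a log axis of the 5p strands in each rat, with saline in blue, METH in red, 1 marker shape per rat number and a bar at the group mean. Levels are between 0.687 and 39.4 CPM, the groups overlap for each strand, and METH rat 4 is highest for miR-23b-5p and miR-27b-5p.

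The comparison of METH with saline asked which members differed between the groups. In the quasi-likelihood test of edgeR with Benjamini-Hochberg adjustment over all 507 miRNAs, 0 of 10 members had an adjusted p under 0.05, against 0% of all tested miRNAs. The members' adjusted p ranged from 0.818 to 0.939 in this edgeR test. At an unadjusted p under 0.05 there were 0 members, against 5.52% of all tested miRNAs. DESeq2, the edgeR exact test and the likelihood ratio test each called 0 members, although over all miRNAs they made 8, 6 and 7 calls. Changes of 1.5-fold or more were found in 2 members, miR-23b-5p and miR-24-3p, against 16.8% of all tested miRNAs. This count depends on the fit. Without METH rat 4 both were under 1.5-fold, with log2 fold changes of 0.080 and -0.55. With 1 library left out miR-23b-5p ran from 0.080 to 0.79 and miR-24-3p from -1.05 to -0.43, and under other settings they ran from 0.11 to 0.68 and from -0.85 to -0.63. Groups that did not overlap were seen for 0 members, against 3.16%. Log2 fold changes were above 0 for 6 members and below 0 for 4, against 52.7% of all tested miRNAs below 0. Their median was 0.20, and the median over all tested miRNAs was -0.02. The 4 below 0 were the 3 forms of miR-24 and miR-27a-5p. The intervals leave room for changes of over 1.5-fold in each member except miR-27a-3p, whose upper bound was 0.56 and lower bound -0.27 on the log2 scale.

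**Figure D3:**
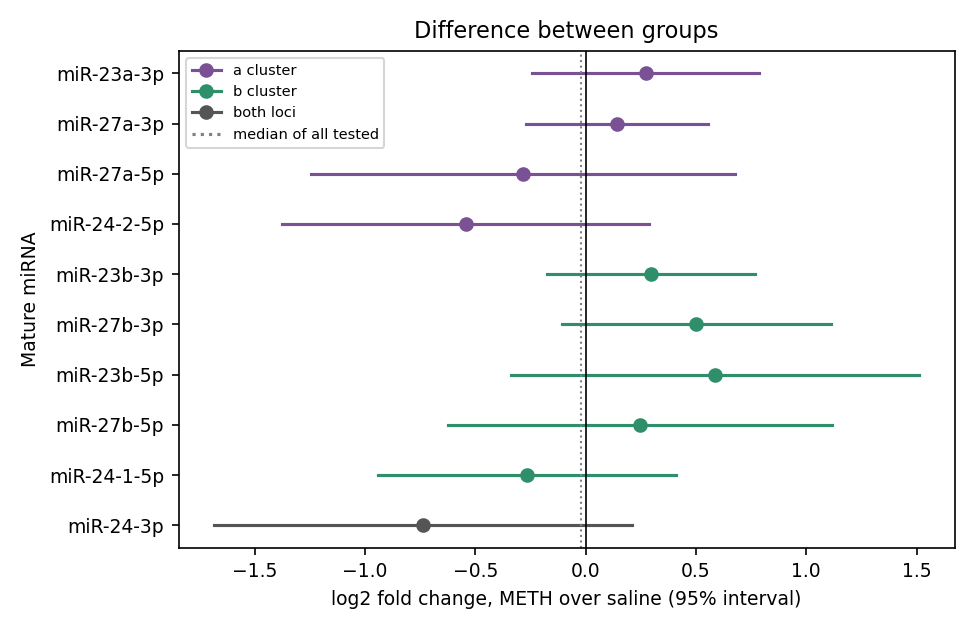
Log2 fold change of METH over saline for each member, with bars for the 95% interval from the edgeR quasi-likelihood fit, in purple for the a cluster, green for the b cluster and grey for miR-24-3p. Every interval includes 0, and the dotted line marks the median of -0.02 over all tested miRNAs.

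The spread among rats of 1 group differed between strands. The within-group SD of log2 CPM was 0.14 for miR-27a-3p, which placed it at the 1.58th percentile of all tested miRNAs. For miR-23b-3p it was 0.24 (10.5th percentile), for miR-23a-3p 0.29 (17.4th percentile) and for miR-27b-3p 0.39 (35.5th percentile). By contrast, miR-24-3p had an SD of 0.71 at the 80.5th percentile, although it had the most counts. The 5p strands lay between 0.41 for miR-24-1-5p and 0.66 for miR-27a-5p, and the median over all tested miRNAs was 0.47.

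The a cluster was next compared with the b cluster through strands that belong to 1 locus. The ratio of an a strand to its b counterpart was taken within each library, so that library scaling cancels. Mature strands of nearly equal length were compared, but adapter ligation and counting can favour one sequence, so a ratio far from 1 need not be the ratio in the tissue. The guides of the b cluster were the more abundant in all 8 rats. Summed over miR-23 and miR-27, the b guides were at 4430.3 to 8976 CPM and the a guides at 1655 to 2455 CPM, and b exceeded a by 2.41-fold to 3.66-fold.

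The miR-23 pair kept nearly the same ratio in each rat. For miR-23a-3p over miR-23b-3p the ratio was 0.443, 0.427, 0.387 and 0.359 in saline rats 1 to 4 and 0.402, 0.397, 0.394 and 0.404 in METH rats 1 to 4. The METH rats lay within the saline range. The log2 ratio was -1.31 ± 0.14 (SD, n = 4) in saline and -1.32 ± 0.016 (SD, n = 4) in METH. Its SD over the 8 rats, 0.091, was at the 5.0th percentile of the 40 pairs of this kind in the table, that is, pairs whose names differ by the letter a or b, plus the miR-24 pair. The difference between groups was -0.01, with an interval from -0.33 to 0.30.

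The miR-27 guides varied more. The ratio of miR-27a-3p to miR-27b-3p was 0.285, 0.401, 0.407 and 0.352 in the saline rats and 0.349, 0.348, 0.314 and 0.180 in the METH rats. METH rat 4 had the lowest ratio, with saline rat 1 next, and the groups overlapped. The difference in log2 ratio was -0.31 ± 0.25 (SE), with an interval from -0.90 to 0.27, and it was -0.089 without METH rat 4. For the 5p strands, miR-27a-5p over miR-27b-5p was between 0.0572 and 0.369 in the saline rats, at both ends of the whole range, and between 0.0832 and 0.107 in the METH rats. This pair had a difference in log2 ratio of -0.59 ± 0.50 (SE), with an interval from -1.74 to 0.56, and it was -0.12 without saline rat 2 and -1.01 without saline rat 1.

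For the rare 5p strands of miR-24, the a strand was the more abundant. The ratio of miR-24-2-5p, from the a cluster, to miR-24-1-5p, from the b cluster, was 1.64, 2.12, 2.21 and 1.87 in the saline rats and 2.24, 1.47, 1.47 and 1.27 in the METH rats. METH rats 2 to 4 were below every saline rat, but METH rat 1 had the highest ratio of all, so the groups overlapped. The difference in log2 ratio was -0.30 ± 0.21 (SE), with an interval from -0.79 to 0.18, and it was -0.47 without METH rat 1 and -0.20 without METH rat 4. Thus the a strand was above the b strand in all 8 rats for miR-24 5p. It was below the b strand in all 8 rats for the miR-23 and miR-27 guides and for miR-27 5p (ratio 0.0572 to 0.369). Strand levels were compared here, and the output of the loci was not measured.

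In the limma test over the 40 ratios, 0 of the 4 member pairs had a Benjamini-Hochberg adjusted p under 0.05, against 0% of all pairs. Adjusted p-values of the 4 pairs were 0.852 to 0.980 in limma. Unadjusted, 0 of all pairs were under 0.05 in limma and 1 in the exact permutation test, and groups did not overlap for 0 member pairs, against 2.5% of all pairs. Summed over the miR-23 and miR-27 guides, the log2 ratio of a to b was -1.39 ± 0.11 (SD, n = 4) in saline and -1.55 ± 0.21 (SD, n = 4) in METH. This difference of -0.16, given as a description, was -0.056 without METH rat 4.

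**Figure D4:**
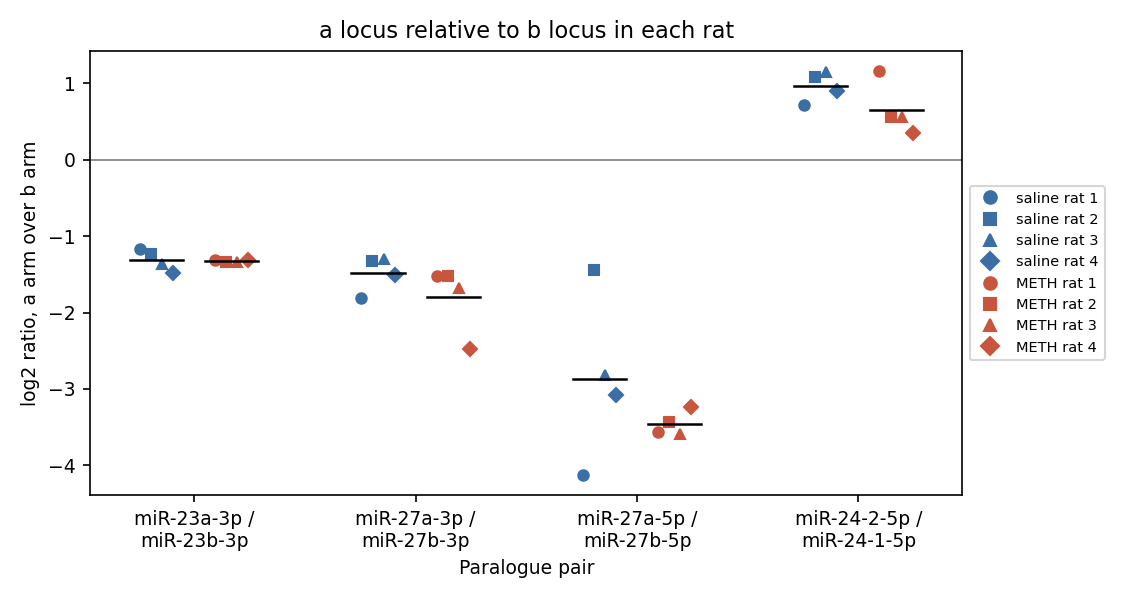
Log2 ratio of the a strand over the b strand for the 4 paralogue pairs in each rat, with saline in blue, METH in red, 1 marker shape per rat number and a bar at the group mean; the grey line at 0 is an equal level. The miR-23 ratios stay between 0.359 and 0.443 on the linear scale, METH rat 4 is low for the miR-27 guides, and the miR-24 pair lies above 0.

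Whether cluster partners varied together among rats was examined for 4 relations of log2 CPM over the 8 rats, with saline and METH pooled. These values share the library and its scaling factor. For miR-23a-3p with miR-23b-3p, of different clusters, Pearson's r was 0.957 (exact permutation test, p = 0.000223, adjusted 0.000893). Spearman's rho was 0.929 (exact permutation test, p = 0.00223, adjusted 0.00893). These strands differ by 1 base and reads could be shared between them, so this r need not reflect separate loci. How many other miRNA pairs reach such an r was not computed. Without the 2 rats farthest from the median of miR-23a-3p, r was 0.941. For miR-23b-3p with miR-27b-3p, of 1 cluster, r was 0.969 (exact permutation test, p = 0.000645, adjusted 0.00129) and rho was 0.857 (exact permutation test, p = 0.0107, adjusted 0.0214). Without the 2 farthest rats r was 0.884. With group means subtracted, r was 0.948 and 0.956 for these relations. When libraries were scaled by their totals, r was 0.962 for miR-23a-3p with miR-23b-3p (adjusted p = 0.00446, exact permutation test). It fell to 0.812 for miR-23b-3p with miR-27b-3p (adjusted p = 0.0298, exact permutation test).

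The relations of miR-27a-3p had lower r values and did not pass. With its cluster partner miR-23a-3p, r was 0.591 (exact permutation test, p = 0.121, adjusted 0.161) and rho was 0.619 (p = 0.115 in the exact permutation test, adjusted 0.153), and without the 2 farthest rats r was 0.639. Leaving out METH rat 3 lowered this r to 0.190, leaving out saline rat 1 raised it to 0.747, and with RLE factors it was 0.769 and passed. With its paralogue miR-27b-3p, r was 0.535 (exact permutation test, p = 0.177, adjusted 0.177) and rho was 0.476 (p = 0.243 in the exact permutation test, adjusted 0.243), and without the 2 farthest rats r was 0.664. This last relation passed without METH rat 4 (r = 0.825, adjusted p = 0.0291, exact permutation test). It turned to r = -0.171 when libraries were scaled by their totals, so it depends on 1 library and on the scaling. The difference between the relations was not tested.

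**Figure D5:**
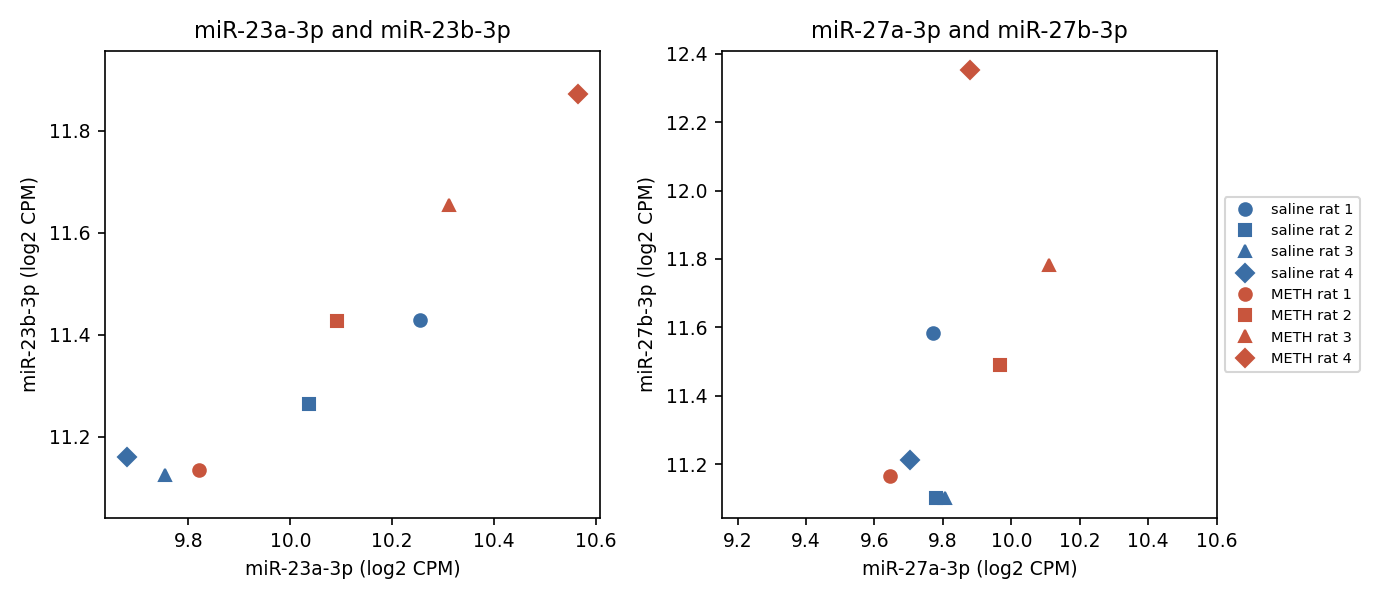
Log2 CPM of the b guide against the a guide in each rat, for miR-23 on the left and miR-27 on the right, with saline in blue, METH in red and 1 marker shape per rat number. The 8 rats follow a line for miR-23 (r = 0.957), whereas for miR-27 METH rat 4 lies above the others (r = 0.535).

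The miR-24-3p strand was also set beside its cluster mates. The root mean square difference over the 8 rats between mean-centred log2 levels was 0.17 between the summed guides of the a and b clusters. It was 0.79 between miR-24-3p and the a guides and 0.91 between miR-24-3p and the b guides. The root mean square difference grows with a strand's own spread, which was wide for miR-24-3p (within-group SD 0.71). Correlations of miR-24-3p with its cluster mates were not computed, so a difference in pattern was not tested. The count of miR-24-3p over that of the 4 miR-23 and miR-27 guides together ranged from 0.839 in METH rat 4 to 6.20 in saline rat 2. This ratio is set between rats here and gives no relative abundance, because the counting of reads from both miR-24 loci is not stated. By the same measure, the non-member miRNAs most like the a guides were miR-412-3p (0.053), miR-25-3p (0.087) and miR-26a-5p (0.11). Those most like the b guides were miR-7a-1-3p (0.068), miR-15b-5p (0.11) and miR-496-3p (0.12).

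Strand use within a hairpin was compared as the ratio of 5p to 3p counts. For every 1000 counts of the 3p strand, miR-27b had 3.67 to 7.14 of its 5p strand, miR-23b had 2.08 to 5.32 and miR-27a had 0.858 to 3.32. The 5p strand of miR-23a, which is no member and was looked at after its values were seen, had 2 to 8 counts per library. For every 100 counts of miR-24-3p, the 5p strands of both miR-24 hairpins together had 0.0699 to 0.331. This value is no measure of strand use, because the counting of miR-24-3p reads from both loci is not stated. The log2 ratio of 5p to 3p differed between METH and saline by 0.12 ± 0.36 (SE) for miR-23b, -0.49 ± 0.43 (SE) for miR-27a and -0.22 ± 0.34 (SE) for miR-27b. For miR-23b it turned to -0.13 without METH rat 4. For miR-27a it was -0.80 without METH rat 4 and -0.24 without METH rat 1, and for miR-27b it was -0.45 without saline rat 2 and -0.099 without METH rat 1. In the limma test over 174 precursors, 0 of these 3 had a Benjamini-Hochberg adjusted p under 0.05, against 0% of all precursors, and adjusted p was 0.933 for each. Unadjusted, 3 of the 174 precursors (1.72%) were under 0.05 in limma and 4 in the exact permutation test, none of them a member. Groups did not overlap for 0 of the 3, against 2.3% of precursors.

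Marker miRNAs of cell types that a piece of striatum can hold were summed beside the members. The vascular list (miR-126a-3p, miR-126a-5p, miR-143-3p, miR-145-5p, miR-145-3p, miR-221-3p and miR-222-3p) had all 7 miRNAs tested and a sum of 14667 to 16469.7 CPM in saline and 16587 to 22487 CPM in METH. These ranges did not overlap, with METH higher, but the saline maximum lay close to the METH minimum. Other scaling was not tried for this sum, and the share of comparable sums without overlap was not computed. Most of the sum came from miR-126a-3p, miR-222-3p and miR-143-3p, at 8520.47, 4649 and 2468 CPM on average, whose log2 fold changes were 0.12, 0.35 and 0.39. Of the others, miR-145-3p was at 0.07, miR-145-5p at -0.03, miR-221-3p at -0.04 and miR-126a-5p at -0.49. The list's median log2 fold change was 0.07 and 0 of its miRNAs passed the adjusted edgeR test. The part of vascular cells in the members' values was not tested. The sums of the other lists overlapped between groups. They were 402 to 643 CPM against 341 to 2816 CPM for erythrocytes (2 of 4 tested), 1082 to 2099 against 693 to 2067 for leukocytes and microglia (5 of 5) and 2784.5 to 3571 against 2893 to 7124 for choroid plexus (4 of 4). For oligodendrocytes (4 of 4) they were 3381 to 3682 against 2588 to 4816 CPM, and for neurons (4 of 4) 249554 to 451242 against 293280 to 438386 CPM, saline first. Median log2 fold changes were 0.65, -0.03, 0.35, -0.21 and 0.01 in this order, and 0 miRNAs of these lists passed the adjusted edgeR test.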

How the data were processed

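Per the labels and methods, the authors gel-purified small RNA, made libraries with a UMI kit, trimmed with cutadapt 1.18, aligned to rn6 with STAR 2.7.0e and counted mature miRNAs with featureCounts (Subread 1.6.4). The deposited values are raw counts. UMI merging, the miRNA annotation, strand setting and multi-mapping rule are not given in the sources used here. If UMIs were not merged, PCR copies are counted, and reads could be shared between paralogues.

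METH was compared with saline by edgeR 4.0.16 (quasi-likelihood test, TMM, filterByExpr at a minimum count of 10) in R 4.3.3, with SE from the F statistic. Ratios were tested with limma 3.58.1 on log2 CPM (prior count 2). p-values were Benjamini-Hochberg adjusted over all features of a fit and cover the spread between rats. DESeq2 1.42.0 and other settings were alternatives. The text names the 10 members and, for each cluster, the 3 non-members most like its guides. Members and lists were chosen with earlier results of these data known. No replicate pairs were counted as one sample.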

Additional observations from a re-analysis of the deposited data

Results flagged for a closer look

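In 36 groups of 4 rats (the members and their ratios), 2 had a rat far from the other 3, where chance gives about 1.8. The log2 ratio of miR-27a-3p to miR-27b-3p was -2.47 in METH rat 4, against -1.67 in the nearest METH rat. The log2 ratio of 5p to 3p for miR-27b was -8.07 in saline rat 2, against -7.22 in the nearest saline rat.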

How the results depend on the processing

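Over all miRNAs the count of calls was 0 in the quasi-likelihood fit, 8 with DESeq2, 6 with the edgeR exact test and 7 with the likelihood ratio test, and 0 to 5 with 1 library left out, the 5 without METH rat 1. Members had 0 calls in each of these fits. At an unadjusted p there were 54 miRNAs without METH rat 1, 25 without METH rat 3 and 58 with voom, of which 1, 1 and 2 were members, and no member in the other fits. For the members and their ratios, neither direction nor call changed in 165 of 165 values under other settings and in 132 of 136 with 1 library left out. The exceptions were miR-27b-5p (-0.019 to 0.50 over the fits with 1 library left out), miR-23a-3p over miR-23b-3p (-0.067 to 0.035) and the strand ratio of miR-23b (-0.13 to 0.31). Counts of ratio calls were 0 throughout. RLE factors raised r to 0.769 for miR-23a-3p with miR-27a-3p and to 0.784 for miR-27a-3p with miR-27b-3p, both past the threshold, and library totals turned the latter to -0.171. With 1 library left out the former ranged from 0.190 to 0.747 and the latter from 0.212 to 0.825. The cause was not tested. TMM put the median over all miRNAs at -0.02, library totals at -0.12 and upper quartile factors at 0.08, and none of these turned a member's direction. With library totals miR-27a-3p was at 0.017, miR-23a-3p at 0.11, miR-23b-3p at 0.14, miR-27b-3p at 0.32, miR-23b-5p at 0.37, miR-27b-5p at 0.078 and miR-27a-5p at -0.50. With upper quartile factors miR-27a-3p was at 0.23, miR-27a-5p at -0.18 and miR-24-1-5p at -0.17. Factors without miR-24-3p and miR-124-3p, chosen after seeing the data, gave -0.71 for miR-24-3p. With the rat number as a replicate block there were 0 calls in each of the 3 tests. Rats with the same number share only that number, and their deviations correlated at -0.34, -0.15, -0.15 and -0.36. Counts of 10 to 68 limit miR-27a-5p.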
